A study of Homo sapiens with 6 samples.

Results

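Small ribosomal subunit assembly factors are the proteins that build the smaller part of the ribosome around its RNA. A list of 45 such genes was followed across 6 arrays of Kasumi-1, a human acute myeloid leukaemia cell line with the t(8;21) translocation. Members were found by gene symbol: a probe set counted only where the annotation of the HG-U133 Plus 2.0 platform gave a member as its only gene, with CIRH1A read as UTP4 and UTP11L as UTP11. This gave 88 probe sets for 44 of the 45 genes, among 13572 genes tested in all. NOP56 was not analysed here, because its probe sets also carry the names of other genes.

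The cells were grown with vehicle or with 20 nM homoharringtonine (HHT), a plant alkaloid that stops ribosomes early in translation elongation, and RNA was taken after 24 h, on 3 arrays per group. Both groups were the same line in the same medium and differed, per the labels, in HHT alone. Nothing in the labels says that arrays of a group were cultured apart, and each p-value therefore rests on a spread that could be technical. The series title ties HHT to MYC, a transcription factor with a known part in ribosome production. MYC read 14.15 ± 0.0123 in vehicle and 9.75 ± 0.220 in HHT (log2 signal, SD, n = 3), and it fell by 4.40 (SE 0.0958, adjusted p = 5.29e-09).

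Assembly starts in the nucleolus, where a large particle called the small subunit processome forms on the freshly made precursor RNA. Its parts bind in modules: the UTP-A and UTP-B complexes first, together with the U3 snoRNP, an RNA and protein particle that pairs with the precursor, and then smaller complexes, helicases and RNA-modifying enzymes. After the precursor is cut, a set of late factors escorts the young subunit to the cytoplasm and trims its RNA. Genes of this pathway are widely described as targets that MYC switches on.

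Most of the assembly factors were lower after HHT, and a few were higher. As deposited, 28 of the 44 fell and 5 rose at an adjusted p under 0.05 (limma), against 24.2% and 29.6% of all genes tested, and 11 were not called. Their median log2 change was -0.33, beside 0.00 over all genes. Every HHT array lay below every vehicle array in 28 of the 44 (63.6%), the same 28 that fell, beside 29.0% of all genes. Every HHT array lay above in 5 of the 44 (11.4%), the same 5 that rose, beside 33.2% of all genes. Both arrangements come from the values that gave the calls, so they add no separate support. Falls of at least 1 on the log2 scale were seen for 7 factors, beside 5.94% of all genes. Among the 8860 genes whose vehicle means fell between 7.35 and 13.85, the range of the members, 31.2% were called lower and 37.3% higher, with a median of 0.05. The sources used here do not say how the arrays were scaled to each other. Fewer transcripts per cell throughout, or fewer cells, therefore cannot be told apart from no change.

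**Figure D1:**
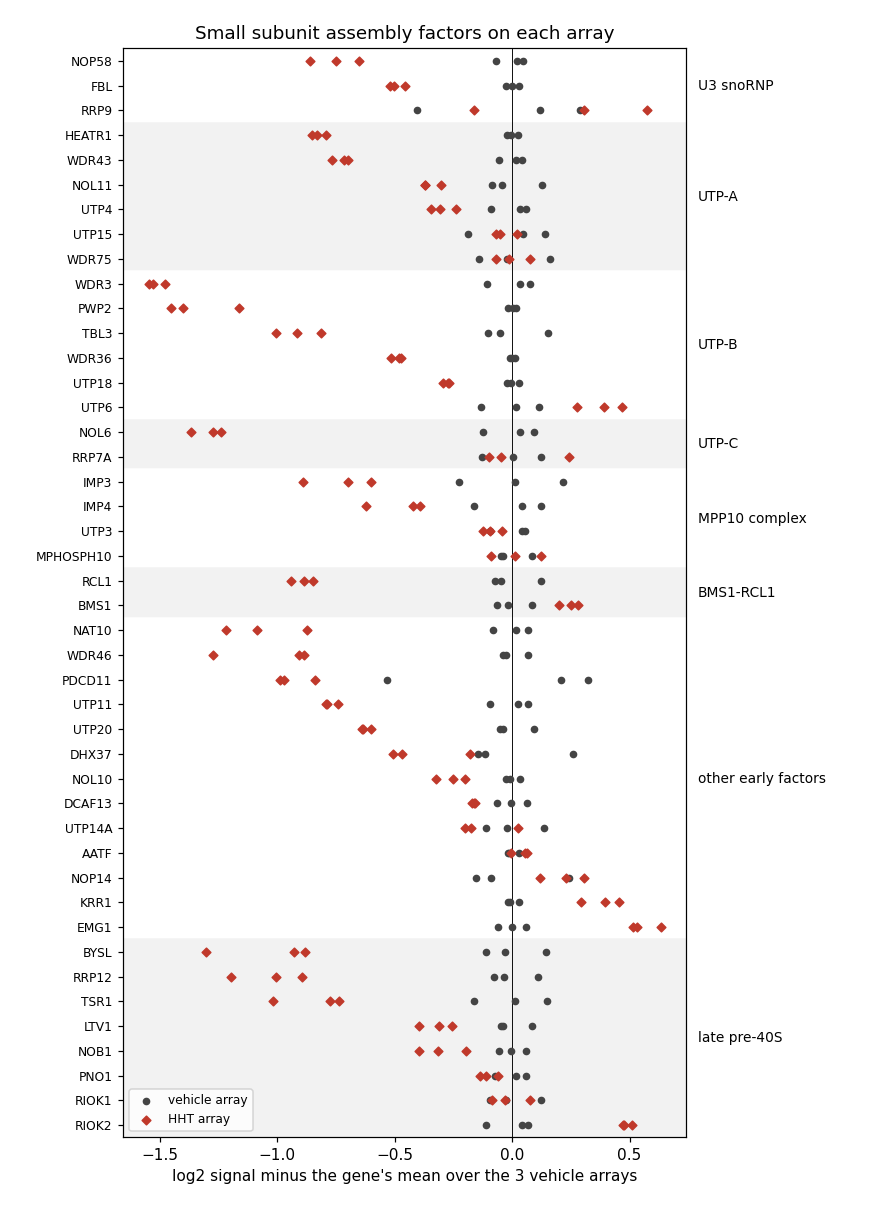
Log2 signal of the 44 measured factors on each array, minus the gene's own mean over the 3 vehicle arrays, so that 0 is the vehicle mean. Grey circles are vehicle arrays and red diamonds HHT arrays, grouped by complex; WDR3 lies farthest to the left at a mean of -1.52 and EMG1 farthest to the right at 0.56.

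The scale of the arrays decides how many factors count as lower, so each call was also made with the arrays brought to equal medians, to equal distributions (quantile normalization) or to equal hybridisation controls, which are transcripts added to each sample. The hybridisation controls averaged 11.98, 11.96 and 12.01 on the vehicle arrays and 11.63, 11.70 and 11.75 on the HHT arrays, and the array medians ran from 5.82 to 5.96 in vehicle and from 5.53 to 5.77 in HHT. Equal medians moved the median of all genes to 0.24 and equal hybridisation controls moved it to 0.28. With equal medians 17 factors were called lower and 7 higher, beside 12.7% and 37.3% of all genes. With equal hybridisation controls the counts were 19 and 11, beside 12.8% and 41.6%, and with quantile normalization 25 and 5, beside 22.9% and 29.8%.

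Under all 4 scalings, 17 factors were called lower: WDR3, PWP2, NOL6, NAT10, BYSL, RRP12, WDR46, PDCD11, TBL3, RCL1, TSR1, HEATR1, UTP11, NOP58, IMP3, WDR43 and UTP20. Another 5 were called higher under all 4, namely EMG1, RIOK2, KRR1, UTP6 and BMS1. The share of all genes called alike under all 4 was not counted. It cannot exceed 12.7% for lower (equal medians) and 29.6% for higher (as deposited), the smallest shares under any 1 scaling. A further 11 were lower as deposited but lost the call under at least 1 other scaling, and 6 that were not called as deposited were called higher under at least 1. None was called lower under one scaling and higher under another. The remaining 5, UTP3, UTP14A, UTP15, RRP9 and PNO1, were not called under any.

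**Figure D2:**
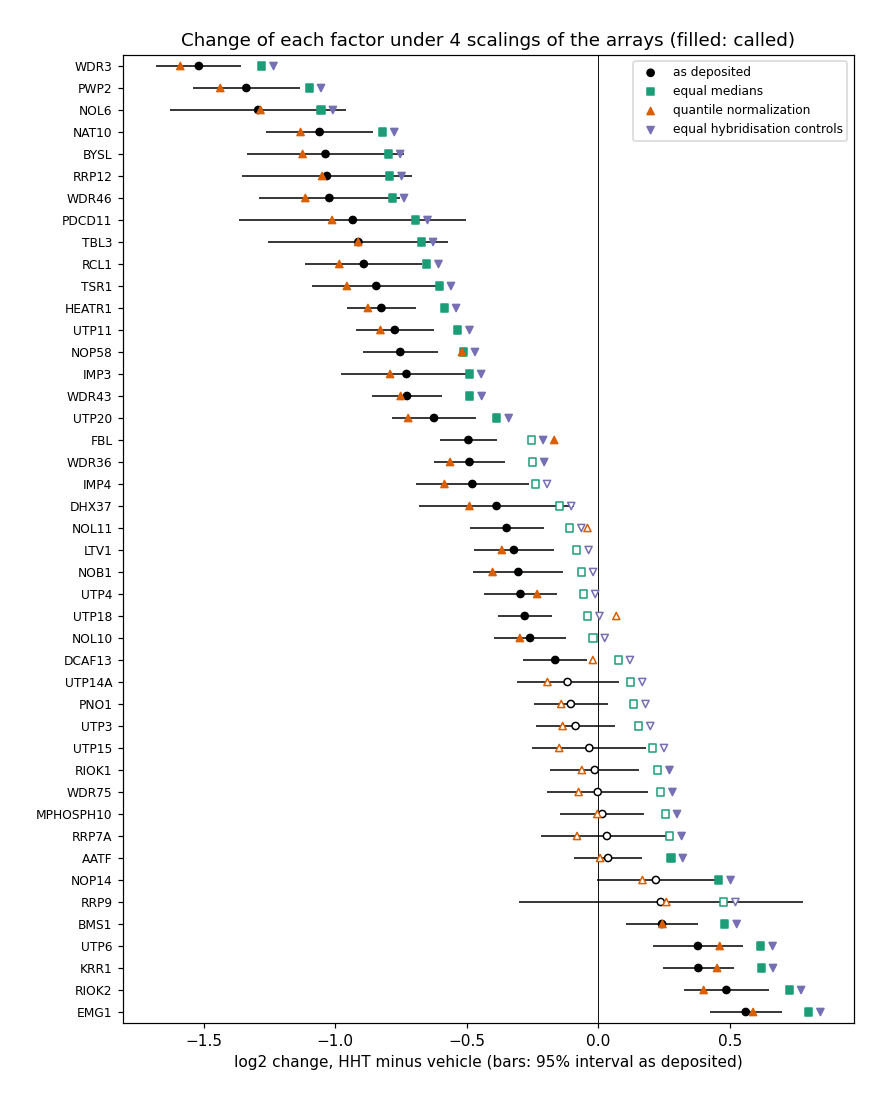
Log2 change of each factor, HHT minus vehicle, as deposited (black circle with its 95% interval), with equal medians (square), after quantile normalization (upward triangle) and with equal hybridisation controls (downward triangle); filled symbols were called. The 17 factors from WDR3 to UTP20 are filled on the left under every scaling, and the 5 from BMS1 to EMG1 are filled on the right.

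An E-box, the short DNA element that MYC binds together with its partner MAX, was looked for near the start of each gene. Its letters, CACGTG, read the same on both strands and were searched in RefSeq promoter windows of 300 bases (GRCh38.p14, 250 bases before to 50 after a start). Windows were found for 40 of the 45 factors, and 19 of these held the element (47.5%), beside 12.3% of the 10923 tested genes with a window and 8.77% of all 27305 genes with one. It was also present in 35.0% of 20 further small subunit factors, in 30.4% of 46 large subunit factors and in 8.0% of 25 small subunit ribosomal protein genes, and these shares were not tested against each other. It was present in 14 of the 24 factors that fell and have a window, in 5 of 10 that were not called, and in 0 of the 5 that rose. Of all tested genes with a window, it was present in 16.9% of those called lower, 10.3% of those called higher and 11.1% of the others. These are matches of letters, and binding was not measured here. The motif and the sites shown were chosen after the changes were known.

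Of the 17 factors called lower under all 4 scalings, 15 have a window, and 8 of these 15 hold the element. This is close to the 5 of 10 among the factors not called as deposited. The sites of the 8 lower factors are shown first, each with up to 12 bases on either side. The E-box is in capitals and the gene's own strand is read 5′ to 3′. In NAT10 and UTP20 the element begins 15 and 10 bases before the start. In the other 6 it begins within the last 50 bases of the window, after the start. In NAT10 and UTP20 the base that follows the first 250 of the window is the annotated first base of the gene in RefSeq, while for BYSL the gene record begins elsewhere.
NAT10, chr11:34105602-34105631, plus strand: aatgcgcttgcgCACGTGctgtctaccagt
UTP20, chr12:101280083-101280112, plus strand: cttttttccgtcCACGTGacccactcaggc
PWP2, chr21:44107388-44107417, plus strand: tgagctgcggcaCACGTGcgacggccgtga
WDR43, chr2:28894658-28894687, plus strand: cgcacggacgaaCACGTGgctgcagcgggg
RCL1, chr9:4792936-4792965, plus strand: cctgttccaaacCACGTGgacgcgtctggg
NOL6, chr9:33473894-33473923, minus strand: ggcatttccgccCACGTGggaagctatgag
BYSL, chr6:41921515-41921544, plus strand: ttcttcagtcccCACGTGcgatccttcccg
WDR46, chr6:33289190-33289210, minus strand: agaggagttttgCACGTGgat

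Within 50 bases of the start, the element was found in 14 of the 24 factors that fell (58.3%) and in 3 of the 10 not called. It was found there in 7.98% of tested genes called lower and in 5.23% of all tested genes. The share was 42.5% over all members with a window, 30.0% in the further small subunit factors and 21.7% in the large subunit factors. The 3 factors not called are RRP9, PNO1 and NOP14, shown next for comparison. Of the factors called lower under all 4 scalings, WDR3, HEATR1, TBL3, TSR1, UTP11, IMP3 and PDCD11 have windows without the element.
RRP9, chr3:51941892-51941921, minus strand: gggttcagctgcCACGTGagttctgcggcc
PNO1, chr2:68157885-68157914, plus strand: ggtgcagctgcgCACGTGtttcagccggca
NOP14, chr4:2963374-2963403, minus strand: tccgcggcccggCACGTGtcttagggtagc

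Among the proteins of the U3 snoRNP, which guides the first cuts of the precursor, 2 of 3 measured fell. With equal medians 1 of 3 was called lower. For this and the modules below, 24.2% of all genes were called lower as deposited and 12.7% with equal medians. NOP58, a core protein of methylation-guiding snoRNPs, read 13.51, 13.39 and 13.48 on the vehicle arrays and 12.81, 12.71 and 12.60 on the HHT arrays. It fell by 0.75 (SE 0.0646, adjusted p = 4.74e-06), and the 2 sets of arrays stand well apart. FBL (fibrillarin), the methyltransferase of the same particles, fell by 0.49 (SE 0.0483, adjusted p = 1.21e-05). With equal medians FBL was at -0.25 and not called (adjusted p = 0.0583). RRP9, which is particular to the U3 particle, read 6.94, 7.64 and 7.47 in vehicle and 7.19, 7.66 and 7.92 in HHT. Its arrays overlap, and its difference of 0.24 had the largest error of any member (SE 0.243, adjusted p = 0.458).

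In UTP-A, the complex that binds the start of the precursor and has been tied to its transcription, 4 of 6 members fell and none rose, with a median of -0.32. With equal medians 2 of 6 were called lower, at a median of -0.08. HEATR1, its largest scaffold, read 11.84, 11.79 and 11.80 in vehicle and 10.98, 11.02 and 10.96 in HHT. The spread within each set was small beside the gap between them, and it fell by 0.82 (SE 0.0598, adjusted p = 1.54e-06). WDR43 fell by 0.73 (SE 0.0604, adjusted p = 3.79e-06). NOL11 (-0.35) and UTP4 (-0.30) were lower as deposited and were not called with equal medians, at -0.11 and -0.06. UTP15 (-0.03, adjusted p = 0.803) was not called. WDR75 read 11.30, 11.12 and 10.997 in vehicle and 11.07, 11.13 and 11.22 in HHT, overlapping throughout, for a difference of -0.0020 (95% interval -0.19 to 0.19). With equal hybridisation controls WDR75 was called higher (0.28, adjusted p = 0.0244). Members of one complex thus ranged from a 1.77-fold lower signal to a difference of -0.0020.

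UTP-B, a second early complex made mostly of WD-repeat proteins, held the largest falls and also a rise. WDR3 read 11.55, 11.69 and 11.74 in vehicle and 10.18, 10.11 and 10.13 in HHT. No array of one group came within a unit of the other, and the gene fell by 1.52 (SE 0.0728, adjusted p = 1.21e-07), a 2.87-fold lower signal. PWP2 fell by 1.34 (SE 0.0921, adjusted p = 1.06e-06), from 10.76 ± 0.0177 to 9.42 ± 0.154 (SD, n = 3), and TBL3 fell by 0.91 (SE 0.154, adjusted p = 0.000613). WDR36 fell by 0.49 as deposited, with -0.25 at equal medians (adjusted p = 0.0747), and UTP18 fell by 0.28, with 0.07 after quantile normalization (adjusted p = 0.222). UTP6 went the other way, with 12.24, 12.14 and 11.99 in vehicle and 12.59, 12.51 and 12.40 in HHT. Every HHT array exceeded every vehicle array, and it rose by 0.38 (SE 0.0769, adjusted p = 0.00206).

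UTP-C is represented here by NOL6 and RRP7A, which work together in one module of the processome. NOL6 read 8.23, 8.45 and 8.39 in vehicle and 7.08, 6.99 and 7.12 in HHT, more than a unit lower on every array. It fell by 1.29 (SE 0.150, adjusted p = 4.20e-05). RRP7A read 9.70, 9.56 and 9.82 in vehicle and 9.59, 9.65 and 9.93 in HHT, and these arrays overlap (0.03, adjusted p = 0.836). Its brightest probe set is of the kind marked _x_at, whose probes can bind other sequences. RRP7A probe sets without that mark gave -0.28 (adjusted p = 0.0540) and -0.29 (adjusted p = 0.273), also not called. With equal hybridisation controls the brightest was called higher (0.32, adjusted p = 0.0296).

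The MPP10 complex, which links the U3 particle to the precursor, had 2 of 4 members lower as deposited and 1 of 4 with equal medians. IMP3 read 11.61, 11.82 and 11.37 in vehicle and 10.71, 10.90 and 10.999 in HHT. Both sets were spread, yet they did not meet, and it fell by 0.73 (SE 0.112, adjusted p = 0.000321). IMP4 fell by 0.48 (SE 0.0972, adjusted p = 0.00207), with -0.24 at equal medians (adjusted p = 0.169). The scaffold MPHOSPH10 read 11.75, 11.76 and 11.88 in vehicle and 11.71, 11.81 and 11.92 in HHT, which overlap (0.02, 95% interval -0.14 to 0.18). With equal hybridisation controls MPHOSPH10 was called higher (0.30, adjusted p = 0.00356). UTP3 was not called either (-0.09, adjusted p = 0.324).

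BMS1, a GTPase, and RCL1, its partner in the processome, moved in opposite directions. RCL1 read 9.56, 9.73 and 9.53 in vehicle and 8.72, 8.76 and 8.66 in HHT, and it fell by 0.89 (SE 0.100, adjusted p = 3.28e-05). BMS1 read 11.89, 11.79 and 11.74 in vehicle and 12.06, 12.09 and 12.01 in HHT, and it rose by 0.24 (SE 0.0622, adjusted p = 0.00833). Neither gene's groups overlap. The BMS1 call was lost without a variance trend (adjusted p = 0.0638).

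The difference between 2 genes on the same array is unaffected by a shift of the whole array, as in scaling to equal medians or to hybridisation controls, though quantile normalization can move it. It is given as a description only, for 4 pairs of partners taken after their values were seen. With 3 arrays per group, an exact test of a pair cannot give a p under 0.1. RCL1 minus BMS1 changed by -1.13 (SD between arrays 0.135 in vehicle and 0.00648 in HHT). NOL6 minus RRP7A changed by -1.33 (SD 0.193 and 0.154) and RIOK1 minus RIOK2 by -0.50 (SD 0.141 and 0.0986). In these 3 pairs the arrays of the groups did not overlap. How many other gene pairs separate in this way was not counted. Among single genes, 29.0% had every HHT array below every vehicle array and 33.2% had every one above. IMP3 minus IMP4 changed by -0.25 and its groups overlapped.

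Among the 13 other early factors, which include helicases, RNA-modifying enzymes and single processome proteins, 8 fell and 2 rose. With equal medians 5 were called lower and 4 higher. NAT10, which acetylates the RNA of the small subunit, read 11.69, 11.64 and 11.54 in vehicle and 10.75, 10.54 and 10.40 in HHT. It fell by 1.06 (SE 0.0919, adjusted p = 5.07e-06), a 2.08-fold lower signal. WDR46 fell by 1.02 (SE 0.121, adjusted p = 4.70e-05), UTP11 by 0.77 (SE 0.0667, adjusted p = 4.89e-06) and UTP20, a long scaffold protein, by 0.62 (SE 0.0720, adjusted p = 3.99e-05).

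PDCD11, a large RNA-binding factor used for both subunits, read 9.68, 8.94 and 9.80 in vehicle and 8.48, 8.63 and 8.50 in HHT. The second vehicle array lay far below the other two, though still above all HHT arrays, and the gene fell by 0.93 (SE 0.194, adjusted p = 0.00243). A second PDCD11 probe set fell by 0.96 (adjusted p = 0.000309). DHX37, the helicase that releases U3 from the precursor, fell by 0.39 (adjusted p = 0.0343), NOL10 by 0.26 and DCAF13 by 0.16 (adjusted p = 0.0314), and none of these was called with equal medians (-0.15, -0.02 and 0.08). The DCAF13 value is that of its brightest probe set. Its other 2 tested probe sets fell by 0.55 (adjusted p = 0.000150) and 0.96 (adjusted p = 0.0290), and the mean of all 3 gave -0.56 (adjusted p = 0.000467). For NOL10 the mean of 2 probe sets gave -0.08 and no call (adjusted p = 0.401). DHX37 also lost its call without vehicle replicate 2 (-0.26, adjusted p = 0.130), HHT replicate 2 (-0.33, adjusted p = 0.119) or HHT replicate 3 (-0.34, adjusted p = 0.100), and DCAF13 without vehicle replicate 2 (-0.13, adjusted p = 0.110) or any HHT array (adjusted p = 0.0728 to 0.0980).

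EMG1, a methyltransferase that modifies one base of the small subunit RNA, had the largest rise of any member. It read 11.78, 11.84 and 11.72 in vehicle and 12.29, 12.31 and 12.41 in HHT, clear of each other, and rose by 0.56 (SE 0.0618, adjusted p = 2.84e-05), a 1.47-fold higher signal. KRR1, an RNA-binding processome protein, rose by 0.38 (SE 0.0604, adjusted p = 0.000395). NOP14 (0.22, adjusted p = 0.104), AATF (0.04, adjusted p = 0.636) and UTP14A (-0.12, adjusted p = 0.304) were not called as deposited. NOP14 was called higher without vehicle replicate 1 (0.34, adjusted p = 0.00535) and with equal medians (0.46, adjusted p = 0.00319), and AATF with equal medians (0.28, adjusted p = 0.0443).

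Of the 8 late factors, which act on the pre-40S particle during its export and final trimming, 5 fell and 1 rose. With equal medians 3 were called lower and 1 higher. BYSL (bystin), which stays on the particle until it reaches the cytoplasm, read 9.53, 9.45 and 9.71 in vehicle and 8.63, 8.26 and 8.68 in HHT. It fell by 1.04 (SE 0.134, adjusted p = 9.18e-05), and RRP12, an export factor, fell by 1.03 (SE 0.145, adjusted p = 0.000165). TSR1, a GTPase-like factor that blocks early use of the subunit, fell by 0.84 (SE 0.109, adjusted p = 9.21e-05). NOB1, the nuclease of the final cut, fell by 0.30 (SE 0.0772, adjusted p = 0.00786) and LTV1 by 0.32 (SE 0.0687, adjusted p = 0.00291), neither called with equal medians (-0.06 and -0.08). PNO1, the partner of NOB1, was not called (-0.10, adjusted p = 0.210).

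The 2 atypical kinases of the late steps did not move alike. RIOK2 read 10.55, 10.73 and 10.71 in vehicle and 11.18, 11.13 and 11.14 in HHT, every HHT array above every vehicle array. It rose by 0.49 (SE 0.0722, adjusted p = 0.000244), and its second probe set rose by 0.51 (adjusted p = 0.00495). RIOK1 read 11.38, 11.31 and 11.53 in vehicle and 11.32, 11.38 and 11.48 in HHT, overlapping (-0.01, 95% interval -0.18 to 0.16). With equal hybridisation controls RIOK1 was called higher (0.27, adjusted p = 0.0107).

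Several probe sets could be compared for 20 factors. Beside the brightest, which stands for the gene in the counts, these had 35 others, of which 15 were called in the same direction, 18 were not called, 1 was called where the brightest was not and 1 was called in the opposite direction. All 4 TSR1 probe sets were called lower, between -1.19 and -0.47. HEATR1 was called lower in 3 of 4, at -0.81, -0.82 and -0.88.

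KRR1 held the opposite pair. Its brightest probe set read 12.10, 12.06 and 12.05 in vehicle and 12.37, 12.47 and 12.53 in HHT. Another 2 rose by 0.62 and 0.72 (adjusted p = 0.00113 and 0.00950), while 1 fell by 0.70, from 9.23 ± 0.0849 to 8.53 ± 0.140 (SD, n = 3, adjusted p = 0.000470), and 2 were not called. The mean of its 6 tested probe sets was 0.23 (adjusted p = 0.104). For PNO1 a dimmer probe set fell by 0.67 (adjusted p = 0.00113) where the brightest was not called, and the mean of its probe sets gave -0.24 (adjusted p = 0.0190). Only the brightest of 5 RRP12 probe sets was called, and the mean of all 5 gave -0.32 (adjusted p = 0.396).

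**Figure D3:**
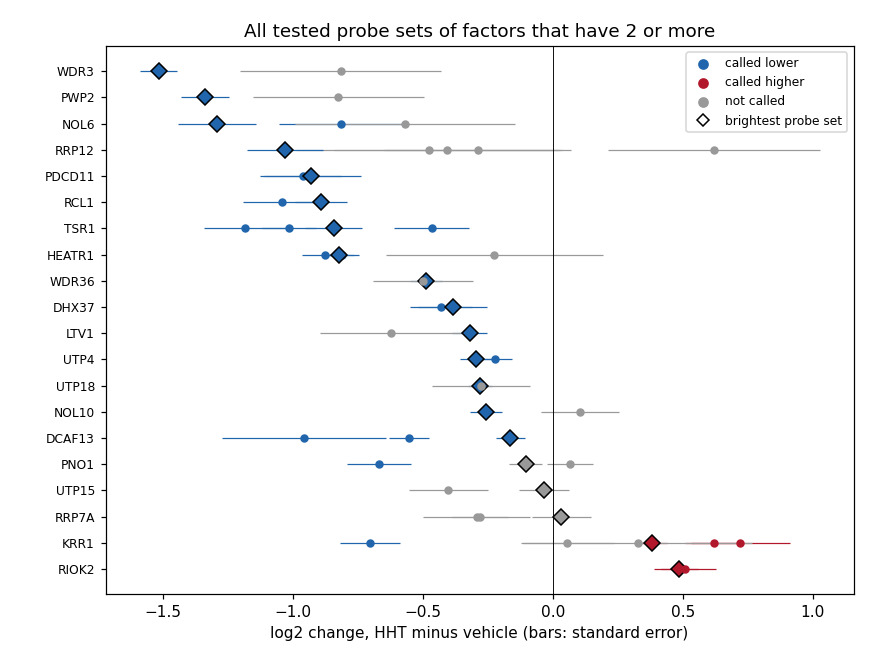
Log2 change with its standard error for every tested probe set of the 20 factors that have 2 or more. Diamonds mark the brightest probe set, blue stands for called lower, red for called higher and grey for not called; KRR1 is the row with both blue and red.

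Other genes of the same process were counted in the same way. Of 25 further small subunit factors, 8 fell and 6 rose as deposited (32.0% and 24.0%, near the 24.2% and 29.6% of all genes), with a median of -0.06. With equal medians 3 fell and 10 rose, shares near the 12.7% and 37.3% of all genes. TSR2, which brings a ribosomal protein to the young subunit, rose by 1.45 (SE 0.108), and MYBBP1A, a nucleolar MYB-binding protein, fell by 1.29 (SE 0.182). Among 48 factors of the large subunit, 26 fell and 8 rose as deposited, with a median of -0.31. With equal medians 15 were called lower and 9 higher (31.2% and 18.8%), with a median of -0.07. NOP16 fell by 1.68 (SE 0.0890) and CCDC86 by 1.66 (SE 0.0765). The share called lower as deposited was 63.6% for the 44 assembly factors and 54.2% for the large subunit factors. With equal medians these shares were 38.6% and 31.2%, and the differences between these lists were not tested.

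Small subunit ribosomal protein genes, whose products the factors assemble, all read slightly lower as deposited. All 21 measured were called, between -0.34 and -0.22 with a median of -0.31, led by RPS21 (-0.34) and RPS12 (-0.33). With equal medians 0 of 21 were called in limma (0 also at an unadjusted p under 0.05) and their median was -0.07, and quantile normalization gave 2 higher and 0 lower. The assembly factors were far more dispersed, between -1.52 and 0.56. The ribosomal protein genes had vehicle means from 14.38 (RPS9) to 15.37 (RPS23), above the 13.85 of the brightest assembly factor. Whether this signal level bears on their narrower range was not tested.

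**Figure D4:**
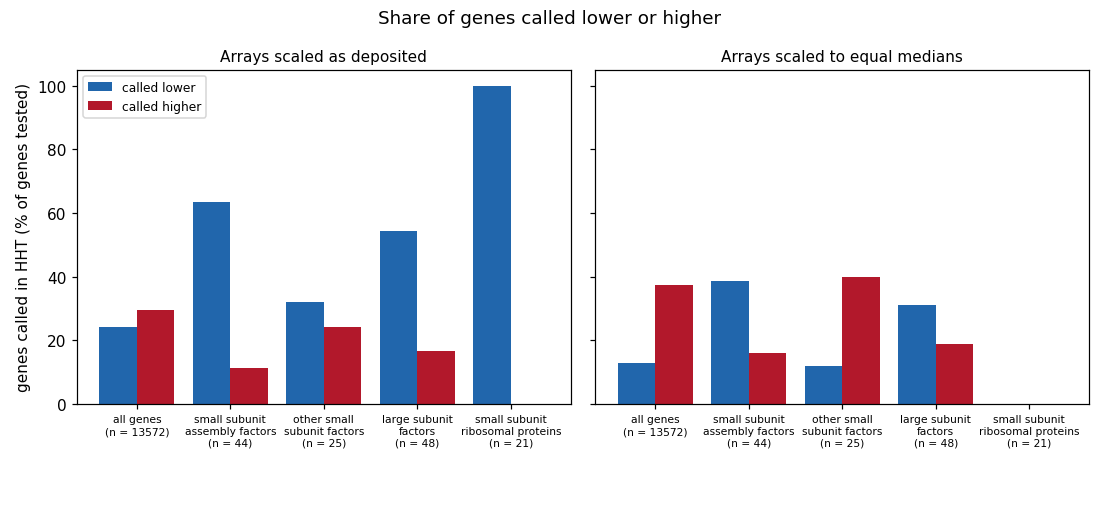
Percentage of tested genes called lower (blue) and higher (red) in HHT, as deposited on the left and with equal medians on the right, for all genes and for 4 lists. The assembly factors are at 63.6% lower and 11.4% higher as deposited and at 38.6% and 15.9% with equal medians; the ribosomal proteins drop from 100% to 0.

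The marker genes did not all match the label, since EPCAM and CD3D, markers of other lineages, read 13.69 and 11.62 in vehicle. Signals of different probe sets do not rank genes by amount. RUNX1T1, the partner gene of the translocation, had 13.20 in HHT and was not called (-0.03), while KIT, CD34, MPO and ELANE, all myeloid progenitor genes, fell by 0.62, 1.18, 1.76 and 1.43. The vehicle means of those that fell were 14.83, 9.20, 14.39 and 6.63, and ELANE at 5.20 in HHT lay near the filter level of 4.80. PRTN3 lay below the filter level, and CD33 was not analysed here. Of the lymphoid markers, CD3E, MS4A1 and CD79A had vehicle means of 5.84, 5.36 and 7.44 and were not called. CD3D was at 11.62 in vehicle and 11.76 in HHT without a call. EPCAM, an epithelial surface gene, read 13.69 in vehicle and 12.93 in HHT and fell by 0.76. COL1A2 was not called, and KRT19, CDH1 and COL3A1 lay below the filter. The part of these marker changes in the results for the assembly factors was not tested. The titles number all vehicle samples ahead of the HHT samples, so order and treatment cannot be told apart. Log2 signals correlated across probe sets at 0.963 to 0.975 within groups and at 0.918 to 0.932 between them.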

How the data were processed

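The authors deposited log2 signals, 1 per probe set. The submitters' processing notes name MAS5 but no version of it, and nothing more on upstream steps is given in the sources used here. The values of 54675 probe sets were used as deposited. The 62 control probe sets and the 40% with the lowest mean (up to 4.80) were left out, and 32768 were tested. Names came from the platform annotation, updated by Entrez ID with RefSeq (GRCh38.p14; 41037 of 41091 single-gene probe sets matched). Of the probe sets naming one gene alone, the brightest on average stood for that gene.

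HHT was compared with vehicle by limma 3.58.1 in R 4.3.3 (lmFit, eBayes with a variance trend), with Benjamini-Hochberg adjustment over all probe sets tested. Called means an adjusted p under 0.05, and only called genes are said to rise or fall. SE is the moderated standard error and SD the spread over 3 arrays, whose number limits the precision. On data simulated with the real spread, the test recovered 47% of 100 probe sets changed by 1 and 73% of 100 changed by 2 among 32768 tested, with 8 false calls. No other probe set was changed, and the changed ones were drawn from all single-gene probe sets above the filter. Recovery at the members' vehicle means, 7.35 to 13.85, was not simulated, so these percentages do not apply to the assembly factors.

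The members and lists were chosen with earlier results of these data known. Every member is accounted for, and array values are given for the members with the highest and lowest signed change of each role group and where probe sets disagree. Of each other pathway list, the 2 called genes with the largest change are named. The groups share replicate numbers, which were not taken as pairs. No 2 arrays were identical. Alternatives were pseudocounts of 1 and 64, 3 scalings, no filter or one of 60%, no or a robust variance trend, array weights, a replicate block, 2 stricter thresholds, averaging over a gene's probe sets, no _x_at probe sets, and leaving out each array.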

Additional observations from a re-analysis of the deposited data

How the results depend on the processing

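Of the 44 factors, 20 kept both direction and call under all 19 alternatives other than the stricter thresholds: 16 of the 28 lower, 3 of the 5 higher and 1 of the 11 not called. Leaving the 3 scalings aside, 24 of the 28 lower factors kept both, the exceptions being DCAF13, DHX37, NOL10 and RRP12. When arrays were left out in turn, 26 of the 28 and all 5 higher factors kept both. With the replicate block, 28 factors were lower and 6 higher, NOP14 being the added call (0.22, adjusted p = 0.0356), and no other call among the 44 changed. Deviations from the group means of vehicle arrays 1 and 3 correlated best with those of the HHT array of the same number, at 0.0655 and 0.0491, and those of number 2 did not, at -0.0141.

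Equal medians left 17 factors lower. Requiring a change of at least 1 left 7 lower and 0 higher. Equal hybridisation controls made 11 higher. The median change was -0.0956 under equal medians, -0.0507 when hybridisation controls were made equal, -0.38 from means of probe sets and -0.36 to -0.29 when arrays were left out. Of the further small subunit factors, 3 fell and 10 rose under equal medians, 4 and 12 when hybridisation controls were made equal, and 2 and 1 with a change of at least 1, and 5 fell at an adjusted p under 0.01.

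Signs turned mainly where the difference was small. Scaling to medians, and then to hybridisation controls, gave 0.23 and 0.27 for RIOK1, 0.15 and 0.20 for UTP3, 0.12 and 0.17 for UTP14A, 0.20 and 0.25 for UTP15, 0.24 and 0.28 for WDR75, 0.0754 and 0.12 for DCAF13 and 0.13 and 0.18 for PNO1. NOL10 was at 0.0246 and UTP18 at 0.0044 with equal hybridisation controls. Quantile normalization gave 0.0685 for UTP18, -0.0036 for MPHOSPH10 and -0.0808 for RRP7A. RRP7A was at -0.18 from the mean of its probe sets and at -0.28 without _x_at probe sets, and WDR75 at 0.0119 with array weights. Leaving out arrays gave ranges of -0.0609 to 0.0474 for RIOK1, -0.13 to 0.0363 for UTP15, -0.0731 to 0.0796 for WDR75, -0.0385 to 0.0677 for MPHOSPH10 and -0.072 to 0.0982 for RRP7A. Apart from what the construction of each scaling fixes, the cause of these shifts was not tested. No group mean of the 44 factors lay below the filter level.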
